A study of Mus musculus with 6 samples.

Results

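Of the 7 genes described here, Olig2, Olig1, Pdgfra and Cspg4 are genes by which oligodendrocyte precursor cells are commonly recognised. Gpr17 and Bcas1 mark precursors as they commit to differentiate, and Tmem100 is described below from endothelial cells only. All 7 are called precursor genes or members below, as a label. They were taken by name, as every probe set (a group of short array probes read as 1 value) annotated to exactly 1 of these symbols. That gave 13 of the 45101 probe sets on the array, of which 8 passed a filter on level and were tested among 25381. With each gene read by its tested probe set of highest mean, all 7 genes were among the 11749 genes tested.

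Of the 6 mice studied, mice 3, 7 and 11 received the diet labelled ZnR, and mice 1, 5 and 9 received the control diet, Ctl. All 6 were males of the inbred strain 129S1/SvImJ, 8 to 10 weeks old, and all had been trained in fear extinction, where a cue that had come to be feared is presented many times with nothing following it. The medial prefrontal cortex of both hemispheres was taken 2 h later, and total RNA of each mouse was read on its own Affymetrix Mouse430_2 array. What the ZnR diet contained is not stated in the labels, so whether it held more or less zinc than the control diet is not read from its name. The comparison asks which prefrontal transcripts depended on the diet. Values are log2 expression values, so a difference of 1 is a 2-fold change, and 3 arrays per diet limit the precision of all of them.

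Oligodendrocyte precursors are the dividing glial cells that give rise to the myelin-forming oligodendrocytes, and they persist throughout the adult cortex. The basic helix-loop-helix factors Olig2 and Olig1 set and maintain the lineage, platelet-derived growth factor acts through the receptor that Pdgfra encodes to sustain the precursors, and Cspg4 encodes their surface proteoglycan NG2. As precursors commit to differentiate they pass through a stage marked by the receptor Gpr17 and then by Bcas1, before the myelin genes reach high levels. None of these genes is exclusive to the lineage in all tissues, since fibroblasts of the meninges carry Pdgfra and pericytes carry Cspg4.

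The RefSeq promoter table (GRCm38.p6, 250 bases before to 50 after the annotated start) held 3 of the 7 genes, and the windows of these 3 are shown. They belong to the gene with the largest diet difference and to the classical pair of surface markers. Capitals mark matches on either strand to CCAAT, to TATAAA, to the E-box CANNTG and to the SOX motif ACAANG, and no match overlapped another.
Olig2 (chr16:91225300-91225599, + strand): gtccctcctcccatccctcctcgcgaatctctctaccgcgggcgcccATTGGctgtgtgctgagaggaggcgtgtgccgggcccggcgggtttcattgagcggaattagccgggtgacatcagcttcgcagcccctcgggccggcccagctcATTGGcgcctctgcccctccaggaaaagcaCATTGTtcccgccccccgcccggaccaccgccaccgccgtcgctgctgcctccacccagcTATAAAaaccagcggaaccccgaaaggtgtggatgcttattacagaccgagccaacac
Pdgfra (chr5:75152001-75152300, + strand): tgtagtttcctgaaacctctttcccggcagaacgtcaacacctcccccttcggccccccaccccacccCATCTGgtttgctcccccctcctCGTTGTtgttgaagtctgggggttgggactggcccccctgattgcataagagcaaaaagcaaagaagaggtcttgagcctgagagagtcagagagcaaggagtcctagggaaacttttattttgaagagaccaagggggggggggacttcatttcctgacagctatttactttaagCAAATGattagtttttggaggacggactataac
Cspg4 (chr9:56864854-56865153, + strand): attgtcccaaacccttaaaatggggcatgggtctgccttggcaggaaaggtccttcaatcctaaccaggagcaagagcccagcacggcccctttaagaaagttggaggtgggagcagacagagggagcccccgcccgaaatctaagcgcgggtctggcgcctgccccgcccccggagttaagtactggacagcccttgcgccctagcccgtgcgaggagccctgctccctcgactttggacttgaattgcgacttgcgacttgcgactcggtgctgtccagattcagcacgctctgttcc
The Olig2 window held 2 CCAAT matches, 1 TATAAA match and 1 SOX match. The Pdgfra window held 2 E-boxes and 1 SOX match, and none of the 4 motifs was found in the Cspg4 window. Of 32851 promoters of this length, 37.4% held CCAAT, 13.6% TATAAA, 72.3% an E-box and 41.2% the SOX motif. The G and C bases made up 65.0% of the Olig2 window, 51.0% of the Pdgfra window and 60.0% of the Cspg4 window, against a median of 52.7%. A match describes these letters only.

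No precursor gene passed the test for a diet difference. Of the 7 genes, 6 were higher on average in ZnR mice and 1 was lower, with a median difference of 0.33 log2 units, against 0.03 over all genes tested, of which 57.6% were higher on average. In limma, adjusted by Benjamini-Hochberg over the 25381 probe sets, 0 of 7 genes had an adjusted p under 0.05, where 0.655% of genes passed as higher, 1.27% as lower and 1.92% in all, and 1.47% of probe sets passed. At an unadjusted p under 0.05 there were 4 of 7, all higher, where 11.4% of all genes were higher at that level. In 4 of 7 genes all 3 ZnR mice lay above all 3 Ctl mice, as did 16.5% of all genes, and in no member did all 3 ZnR mice lie below, as they did in 11.1% of all genes. The members were chosen with earlier results of these data known, so these counts are a description. In tissue RNA, a change in the number of cells of a type and a change in RNA per cell cannot be told apart.

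**Figure D1:**
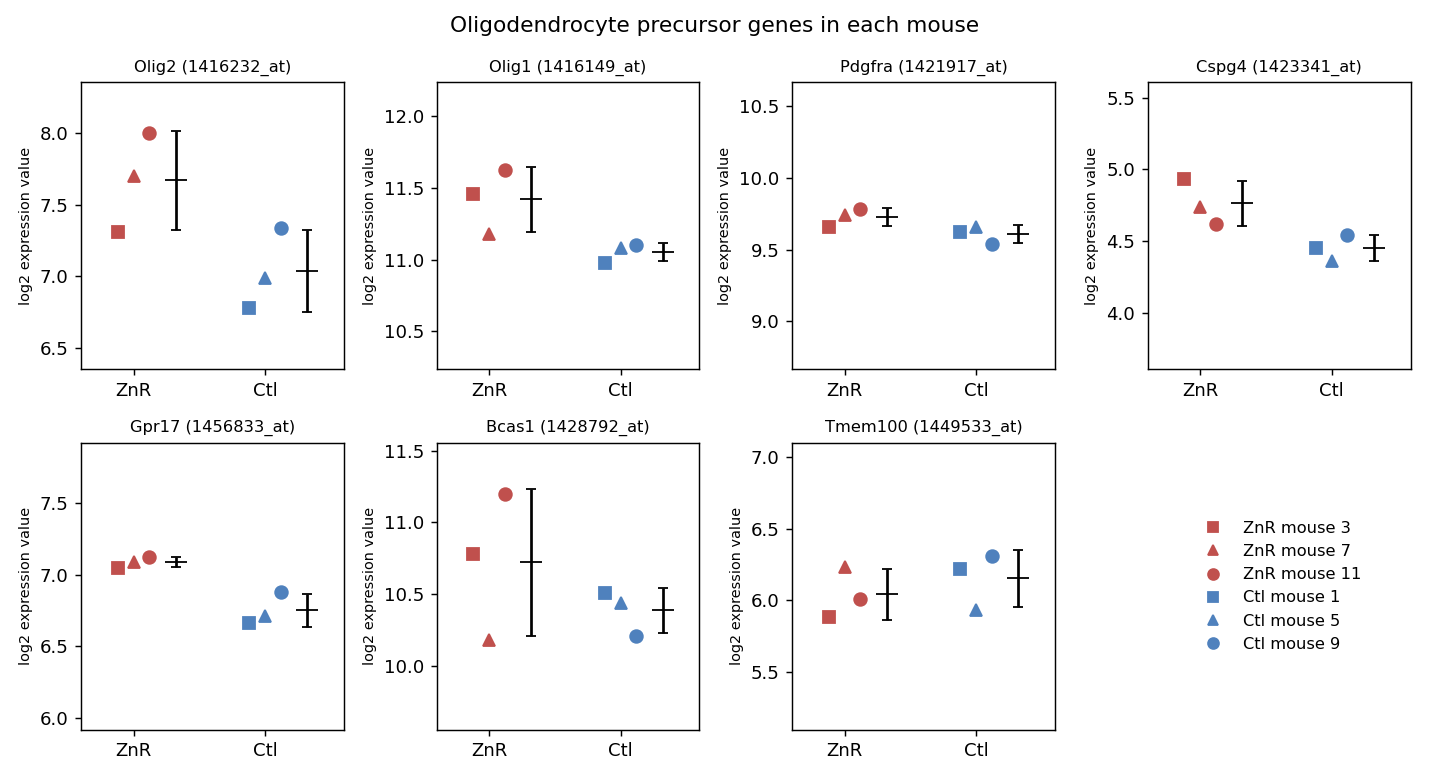
Log2 expression value (vertical axis, each panel spanning 2 log2 units) of the 7 precursor genes in each mouse, with ZnR mice left of Ctl mice and the mean ± SD beside the points (n = 3 per diet). The diets do not overlap for Olig1, Pdgfra, Cspg4 and Gpr17, and they overlap for Olig2, Bcas1 and Tmem100.

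Among the transcription factors, Olig2 had the largest difference of the 7 genes. Its values (probe set 1416232_at) were 7.31, 7.70 and 8.00 in ZnR mice 3, 7 and 11, against 6.78, 6.99 and 7.34 in Ctl mice 1, 5 and 9. The lowest ZnR mouse lay just under the highest Ctl mouse, so the diets overlapped by a single pair of mice. The means were 7.67 ± 0.35 in ZnR mice and 7.03 ± 0.28 in Ctl mice (SD, n = 3 each), a log2 difference of 0.63 ± 0.20 SE or 1.55-fold, with limma adjusted p = 0.169 and an unadjusted 95% interval of 0.16 to 1.11.

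Olig1, whose gene is the next one to Olig2 in the GRCm38.p6 gene table, was read at 11.46, 11.18 and 11.63 in ZnR mice 3, 7 and 11, against 10.98, 11.08 and 11.10 in Ctl mice 1, 5 and 9 (probe set 1416149_at). All ZnR mice lay above all Ctl mice, with ZnR mouse 7 above Ctl mouse 9 by 0.088. The log2 difference was 0.37 ± 0.12 SE (1.30-fold, limma adjusted p = 0.181, 95% interval 0.09 to 0.66). The ZnR mice were more spread (SD 0.22) than the Ctl mice (SD 0.06). The order of ZnR mice also differed between these neighbouring genes, with mouse 7 in the middle for Olig2 and lowest for Olig1.

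The surface receptor and proteoglycan by which the cells are recognised did not pass the test. Pdgfra (probe set 1421917_at) was read at 9.66, 9.74 and 9.78 in ZnR mice 3, 7 and 11, against 9.62, 9.66 and 9.54 in Ctl mice 1, 5 and 9. The diets were separate by only 0.007 log2 units, between ZnR mouse 3 and Ctl mouse 5. The log2 difference was 0.12 ± 0.08 SE (1.09-fold, limma adjusted p = 0.513, 95% interval -0.07 to 0.31). The other probe sets of Pdgfra, 1421916_at and 1438946_at, did not pass the level filter and read 3.18 to 4.01 in ZnR mice and 3.22 to 3.98 in Ctl mice.

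Cspg4 was near the lower end of the measured range on both of its probe sets. Probe set 1423341_at read 4.93, 4.74 and 4.62 in ZnR mice 3, 7 and 11, against 4.45, 4.36 and 4.54 in Ctl mice 1, 5 and 9. The diets did not overlap there, with a gap of 0.085 and a log2 difference of 0.32 ± 0.11 SE (1.24-fold, limma adjusted p = 0.192, 95% interval 0.07 to 0.56). Probe set 1450944_at read 4.39, 4.53 and 4.43 in ZnR mice, against 4.46, 4.36 and 4.21 in Ctl mice. There the diets overlapped, and the difference was 0.11 ± 0.10 SE (limma adjusted p = 0.636). The size of the Cspg4 difference thus depended on the probe set, and the order of the ZnR mice was turned relative to Olig2, with mouse 3 highest on 1423341_at.

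Gpr17, the receptor that marks committed precursors and holds back their maturation, had the smallest p of the 7 genes. Its single probe set 1456833_at read 7.05, 7.09 and 7.12 in ZnR mice 3, 7 and 11, against 6.66, 6.71 and 6.88 in Ctl mice 1, 5 and 9. All ZnR mice lay above all Ctl mice by at least 0.17, the widest gap among the members, and the ZnR mice were tightly grouped (SD 0.04) beside the Ctl mice (SD 0.11). The log2 difference was 0.34 ± 0.09 SE (1.26-fold, limma adjusted p = 0.118, 95% interval 0.13 to 0.54).

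Bcas1, which is carried by early myelinating oligodendrocytes and remains in myelin, was the most variable member. Probe set 1428792_at read 10.78, 10.18 and 11.20 in ZnR mice 3, 7 and 11, against 10.51, 10.44 and 10.21 in Ctl mice 1, 5 and 9. ZnR mouse 11 was the highest and ZnR mouse 7 the lowest of all 6, so the ZnR mice spanned all 3 Ctl mice. The log2 difference was 0.33 ± 0.24 SE (limma adjusted p = 0.533, 95% interval -0.22 to 0.88). Without ZnR mouse 7 it was 0.60, and without ZnR mouse 11 it was 0.10. Its other probe sets, 1453641_at and 1430758_x_at, read 2.94 to 3.54 over the 6 mice and were not tested.

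Tmem100, a small membrane protein known in endothelial cells as a target of bone morphogenetic protein signalling through the receptor ALK1, was the only member lower on average in ZnR mice. Probe set 1449533_at read 5.88, 6.23 and 6.01 in ZnR mice 3, 7 and 11, against 6.22, 5.93 and 6.31 in Ctl mice 1, 5 and 9. The diets were interleaved, with a log2 difference of -0.11 ± 0.13 SE (limma adjusted p = 0.729, 95% interval -0.42 to 0.20). Between the 4 mice other than Ctl mouse 1 and ZnR mouse 3 the difference was 0.00. Its other probe set, 1446625_at, was under the level filter in all mice at 3.24, 3.18 and 2.97 in ZnR mice 3, 7 and 11, against 2.97, 2.63 and 2.74 in Ctl mice 1, 5 and 9, and was not tested.

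**Figure D2:**
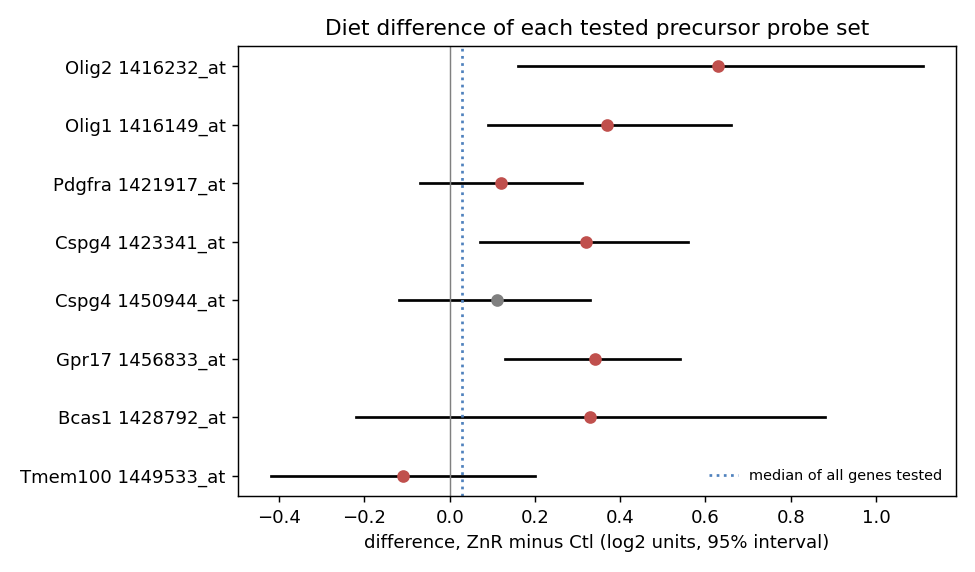
Log2 difference, ZnR minus Ctl (horizontal axis), of the 8 tested probe sets of the precursor genes with unadjusted 95% intervals, where the grey point is the second probe set of Cspg4 and the dotted line is the median of all genes tested (0.03). The intervals of Olig2, Olig1, Gpr17 and 1 of the 2 Cspg4 probe sets lie above 0, and the other 4 span it.

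The arrays of Ctl mouse 1 and ZnR mouse 3 stood apart in their 18S ribosomal RNA controls, which averaged 8.44 in ZnR mouse 3 and 9.09 in Ctl mouse 1, against 10.9 to 12.4 in the other 4 mice. The log2 ratio of the 3′ to the 5′ control probe sets of beta-actin is a sign of RNA integrity. It was 0.86 to 1.24 in ZnR mice and 0.93 to 1.06 in Ctl mice, and highest in ZnR mouse 7. The same ratio for Gapdh was also highest in that mouse (0.26, against 0.12 to 0.20 in the other mice). The part of RNA integrity in the values of ZnR mouse 7 was not tested. Within the pair with low 18S signal, the difference was 0.53 for Olig2, 0.49 for Olig1, 0.04 for Pdgfra, 0.48 for Cspg4, 0.39 for Gpr17, 0.27 for Bcas1 and -0.34 for Tmem100. Between the other mice it was 0.69 for Olig2, 0.32 for Olig1, 0.16 for Pdgfra, 0.23 for Cspg4, 0.31 for Gpr17 and 0.36 for Bcas1. By these probe sets the 6 genes that were higher on average were higher in both comparisons, Pdgfra by only 0.04 within the pair. The second Cspg4 probe set, 1450944_at, was not, at -0.07 within the pair and 0.19 between the other mice. The pair is 1 mouse against 1 mouse. None of the genes passed with the pair as a block.

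Weighting each array by how closely it followed the mean of its own diet was the only setting of the 15 tried in which members passed. Olig2 (adjusted p = 0.0388), Cspg4 (0.0466) and Gpr17 (0.0263) were then called in limma, together with 2003 probe sets in all, against 373 with equal weights. That fit gave Ctl mouse 5 a weight of 6.57, against 0.512 to 0.987 for the other 5 mice. Without any 1 mouse, 0 of 7 genes passed, and the differences ranged from 0.47 (without ZnR mouse 11) to 0.81 (without ZnR mouse 3) for Olig2, from 0.27 to 0.49 for Olig1 and from 0.29 to 0.40 for Gpr17.

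**Figure D3:**
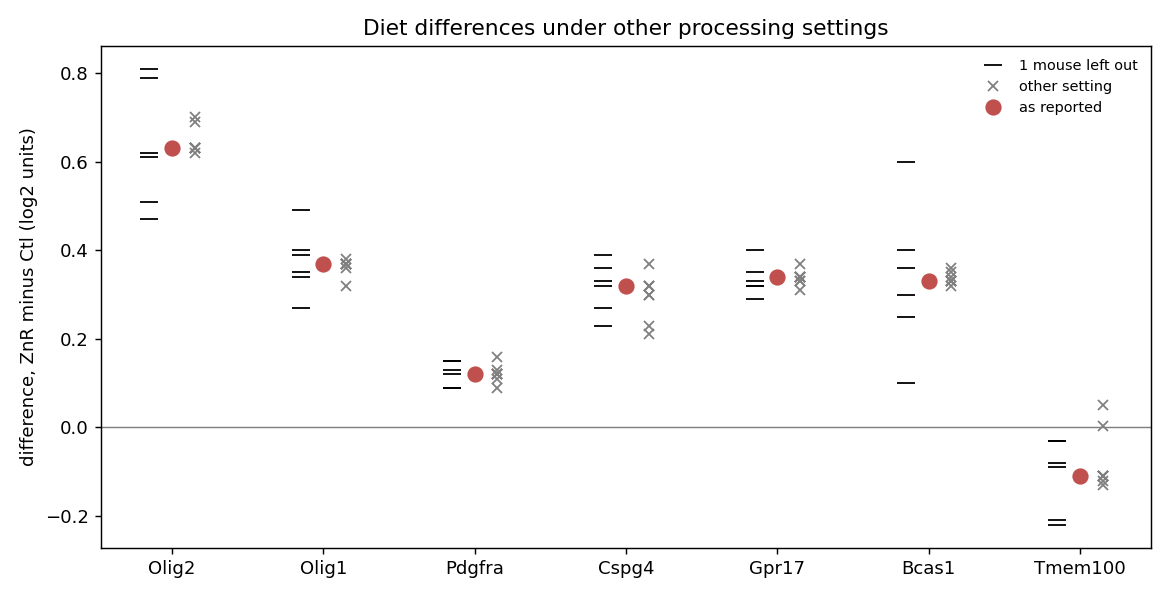
Log2 difference, ZnR minus Ctl (vertical axis), of the 7 precursor genes as reported (circles), with 1 mouse left out (bars) and under the other settings (crosses). Bcas1 spans 0.10 to 0.60, Olig2 0.47 to 0.81, and Tmem100 alone crosses 0.

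The platelet-derived growth factor ligand genes and the second receptor gene, Pdgfrb, did not pass the test either. Of these 5 genes, 2 were higher and 3 lower on average, 0 passed in limma, and their median difference was -0.11. Over all genes, 57.6% were higher on average and 1.92% passed. The 2 higher genes were Pdgfrb and the ligand gene Pdgfd, which read 3.81 to 4.29, near the level floor of 4. Pdgfa, which encodes the main ligand of the Pdgfra receptor, read 9.28, 9.27 and 9.24 in ZnR mice 3, 7 and 11, against 9.49, 9.57 and 9.39 in Ctl mice 1, 5 and 9. Every ZnR mouse lay below every Ctl mouse, with a log2 difference of -0.22 ± 0.08 SE (limma adjusted p = 0.235) on this probe set and -0.16 on the other (0.361). Pdgfb measured -0.44 ± 0.14 (adjusted p = 0.157), and Pdgfrb, the receptor gene of pericytes, 0.39 ± 0.13 (0.17).

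Other genes of precursors were mostly higher on average as well. Of 14 listed, 11 were tested, 10 were higher on average and 1 was lower, with a median difference of 0.18 and none past the threshold. Among all genes tested, 57.6% were higher on average. Cacng4, an auxiliary subunit of AMPA receptors, read 8.48, 8.35 and 8.72 in ZnR mice 3, 7 and 11, against 8.05, 7.94 and 7.87 in Ctl mice 1, 5 and 9, and so was separate between diets. It measured 0.56 ± 0.12 (limma adjusted p = 0.0631) on this probe set and rose on its other one, 1455230_at (0.79 ± 0.10, adjusted p = 0.0214). The lineage factor gene Nkx2-2 measured 0.28 ± 0.13 (adjusted p = 0.316) and the proteoglycan gene Vcan 0.18 ± 0.09 (0.365). Sox10, the factor that acts with Olig2, was named after its values were seen and measured 0.38 ± 0.19 (adjusted p = 0.365). Matn4 was under the level filter.

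Genes that hold back differentiation went in both directions. Of 9 tested, 4 were higher and 5 lower on average, and 2 passed, both lower, as did 1.27% of all genes. Lingo1, a membrane protein of neurons and of the oligodendrocyte lineage that limits differentiation, read 9.58, 9.54 and 9.44 in ZnR mice 3, 7 and 11, against 10.32, 10.22 and 10.36 in Ctl mice 1, 5 and 9. All ZnR mice lay well below all Ctl mice, and Lingo1 fell by 0.78 on the log2 scale (limma adjusted p = 0.0179), and on its other probe set too (-0.92, adjusted p = 0.0214).

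Sox5, a SOX factor of precursors and of deep-layer cortical neurons, read 6.66, 6.96 and 6.75 in ZnR mice 3, 7 and 11, against 7.47, 7.88 and 7.86 in Ctl mice 1, 5 and 9. It fell by 0.94 (limma adjusted p = 0.03), and 2 of its 3 other probe sets fell as well (-0.82 and -0.83, adjusted p = 0.0493 and 0.0499), while the last measured -0.45 (0.293). Both calls were lost without ZnR mouse 3 (adjusted p = 0.0732 for Lingo1 and 0.107 for Sox5), ZnR mouse 11 (0.0673 and 0.102), Ctl mouse 5 (0.0815 and 0.119) or Ctl mouse 9 (0.0524 and 0.0749), and that of Sox5 also without ZnR mouse 7 (0.055). Without both low-18S arrays neither passed (0.109 and 0.0947). The Notch ligand gene Jag1 measured 0.54 ± 0.13 (adjusted p = 0.0907). Markers of cortical excitatory neurons were lower in the same arrays, 6 of 6 on average and 5 past the threshold (0 to 3 with 1 mouse left out), with list means of 9.39 to 9.60 in ZnR mice and 10.35 to 10.49 in Ctl mice, and their part in the falls of Lingo1 and Sox5 was not tested. The share of all genes that passed as lower was 1.27%.

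Later stages of the lineage were also higher on average in ZnR mice, with a wider spread between mice for the myelin genes. Averaged over the 7 genes and centred on all 6 mice, the precursor members stood at 0.09, 0.06 and 0.28 in ZnR mice 3, 7 and 11, against -0.17, -0.18 and -0.08 in Ctl mice 1, 5 and 9. All ZnR mice were above all Ctl mice, as the choice of members with known values allows. The 6 tested genes of the committed stage, all higher on average and none past the threshold, stood at 0.18, 0.02 and 0.35 in ZnR mice, against -0.23, -0.13 and -0.18 in Ctl mice. The share higher on average was 57.6% over all genes. Enpp6, an enzyme of newly forming oligodendrocytes, measured 0.77 ± 0.22 (limma adjusted p = 0.141), Tns3 0.35 ± 0.12 (0.192) and Itpr2 0.32 ± 0.15 (0.332). The other probe sets of Itpr2 measured 0.02 and 0.24, and its difference was 0.17 without Ctl mouse 1 and 0.08 with array weights.

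The 11 tested genes of mature oligodendrocytes were all higher on average, with a median of 0.37 and none past the threshold. By the brightest probe set of each, 4 were separate between diets. Over all genes, 57.6% were higher on average and 16.5% were separate as higher. The list mean stood at 0.23, -0.21 and 0.55 in ZnR mice 3, 7 and 11, against -0.13, -0.16 and -0.28 in Ctl mice 1, 5 and 9. ZnR mouse 7 thus lay among the Ctl mice for the mean of the myelin list. By these probe sets it lay above them for Mog, Cnp, Ermn and Ugt8a, a set named after its values were seen. On other probe sets ZnR mouse 7 lay below all 3 Ctl mice for Ermn (8.25), Ugt8a (7.30) and Cnp (7.91). On a further Cnp probe set it lay among them (9.36). It lay below all 3 Ctl mice for Bcas1 and above all 3 for Olig2, Olig1, Pdgfra, Cspg4 and Gpr17. Ermn measured 0.49 ± 0.15 (limma adjusted p = 0.167), Ugt8a 0.45 ± 0.15 (0.182) and Mbp 0.06 ± 0.08 (0.751) on its brightest probe set, with -0.32 to 0.24 on its 7 others. The difference between precursor and myelin lists was not tested.

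**Figure D4:**
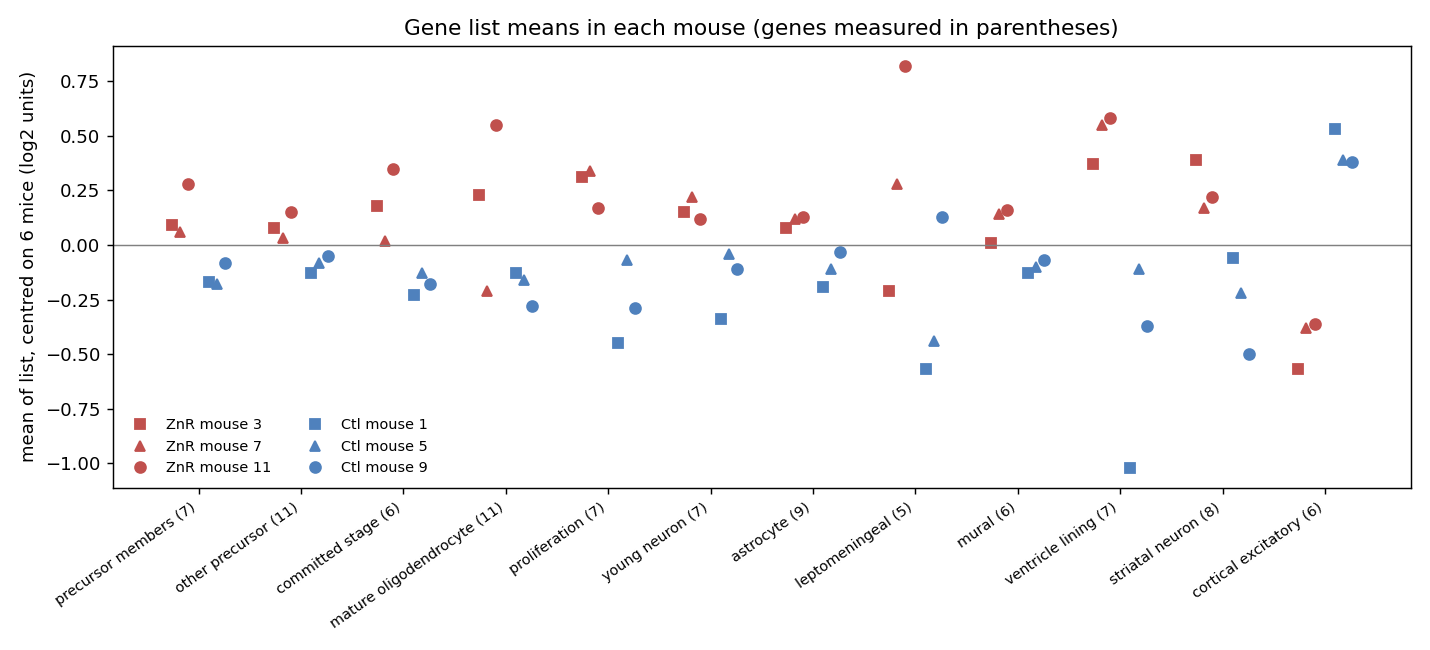
Mean of each gene list per mouse, centred on all 6 mice (vertical axis, log2 units), with ZnR mice left of Ctl mice and the number of genes measured in parentheses. The precursor members stand at 0.06 to 0.28 in ZnR mice and -0.18 to -0.08 in Ctl mice, while the mature oligodendrocyte list spreads over -0.21 to 0.55 within ZnR mice. The ventricle-lining mean includes Ccdc153, which passed the level filter through ZnR mice alone.

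Genes of dividing cells were higher on average in the same mice. All 7 tested were higher on average and 6 of 7 were separate between diets, though 0 passed in limma. Over all genes, 57.6% were higher on average and 16.5% were separate as higher. Top2a read 6.08, 6.27 and 6.0 in ZnR mice 3, 7 and 11, against 4.54, 5.40 and 5.12 in Ctl mice 1, 5 and 9, a log2 difference of 1.09 ± 0.21 SE (adjusted p = 0.0533). Mcm5 measured 0.45 ± 0.11 (adjusted p = 0.0991), and 0.43 ± 0.23 (0.402) on its other probe set, where the diets overlapped. Cdk1 read 4.63, 4.70 and 4.41 in ZnR mice 3, 7 and 11, against 3.74, 4.14 and 3.79 in Ctl mice 1, 5 and 9 (adjusted p = 0.056). Of its Ctl values 2 were under the level floor of 4, so Cdk1 passed the filter mainly through the ZnR mice, and its place in the count above was favoured by the filter. Precursors are not the only dividing cells near this tissue, since the subventricular zone holds progenitors of young neurons. The 7 genes of those cells were likewise all higher on average, by 0.01 to 0.69. Their list means were 8.86 to 8.96 in ZnR mice and 8.39 to 8.70 in Ctl mice. Dlx2 measured 0.57 ± 0.12 (limma adjusted p = 0.0636) and Cd24a 0.69 ± 0.15 (0.0788). The other probe sets of Cd24a measured 0.64 (0.0754) and 0.46 (0.394), with the diets overlapping on the last.

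Bone morphogenetic protein signalling, to which Tmem100 is tied in endothelium, showed no passing gene among 10 tested, of which 7 were higher on average and 6 were separate between diets as higher and 1 as lower. The shares over all genes were 57.6% higher on average, 16.5% separate as higher and 11.1% as lower. Acvrl1, the gene of ALK1 itself, and Smad6 were also listed but were under the level filter. Id3 measured 0.36 ± 0.10 (limma adjusted p = 0.115), Id1 0.28 ± 0.10 (0.237) and Smad5 0.56 ± 0.15 (0.111), though the other probe sets of Smad5 measured 0.02 and 0.05. Endothelial genes, 7 tested, had a median of 0.07 and none past the threshold. Tmem100 itself therefore stood at -0.11 beside a median of 0.24 for the tested genes of this signalling and 0.07 for those of endothelium.

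Markers of other cell types also differed between these tissue samples. Of the 7 ventricle-lining genes tested, Clic6 and Tmem212 rose past the threshold, with list means of 5.45 to 5.65 in ZnR mice and 4.06 to 4.96 in Ctl mice. Striatal neuron genes were higher in 8 of 8 on average with Drd2 and Gpr6 past the threshold, at 11.29 to 11.51 in ZnR mice and 10.63 to 11.07 in Ctl mice. Both lists were separate between diets, though for the ventricle-lining list the level filter favoured this. The ependymal factor gene Foxj1 read 5.01, 5.51 and 5.12 in ZnR mice 3, 7 and 11, against 3.42, 4.61 and 4.57 in Ctl mice 1, 5 and 9. Of the ventricle-lining list, Folr1 was under the level filter, Ttr exceeded the floor on 3 arrays only, and Ccdc153 passed through the 3 ZnR mice alone, so no direction is counted over this list. Its mean includes Ctl values under the floor, that of Foxj1 in Ctl mouse 1 among them. Astrocyte genes were higher in 9 of 9 on average, 1 of them, Gfap, past the threshold, at 10.85 to 10.90 in ZnR mice and 10.58 to 10.73 in Ctl mice. Over all genes, 57.6% were higher on average and 0.655% passed as higher. The ventricle-lining calls numbered 0 in each fit that left out 1 mouse except that without Ctl mouse 1, where both passed. The striatal calls numbered 0 with any 1 mouse left out, and Gfap passed only without ZnR mouse 7. The part of these cells in the precursor gene values was not tested.

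For the cells that share Pdgfra and Cspg4, the leptomeningeal list had 5 genes tested, all higher on average and none past the threshold, with list means of 7.49 to 8.51 in ZnR mice and 7.12 to 7.83 in Ctl mice. The diets overlapped, and Lum, Col1a1 and Slc6a13 were under the level filter. Dcn read 5.92, 7.28 and 7.57 in ZnR mice 3, 7 and 11, against 5.52, 5.79 and 6.18 in Ctl mice 1, 5 and 9. Pdgfra, Olig2 and Gpr17 shared this order of ZnR mice, while Cspg4, Olig1, Bcas1 and Tmem100 did not. Olig2, Gpr17 and Olig1 shared the order of Ctl mice for Dcn. The order for Pdgfra (9.62, 9.66 and 9.54) differed from it, as did those for Cspg4, Bcas1 and Tmem100. The mural list had 6 genes tested, 5 higher and 1 lower on average and none past the threshold, at 6.92 to 7.08 in ZnR mice and 6.78 to 6.85 in Ctl mice, with Anpep and Tagln under the filter. Microglial genes, 7 tested, had a median of -0.10, with 6 lower on average and none past the threshold. Among all genes tested, 57.6% were higher on average in ZnR mice. The part of fibroblasts and pericytes in the Pdgfra and Cspg4 values was not tested.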

How the data were processed

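Total RNA of each mouse, 500 ng, was labelled with the Affymetrix 3′ IVT Express kit (per the labels' protocols). The authors deposited a table of log2 values, with a row for each probe set and a column for each mouse. Per the submitters' processing notes, R 2.15.1 with GCRMA 2.28.0 was used; GCRMA corrects background by probe sequence and makes array quantiles nearly equal. A change in total RNA is therefore hidden, and low values are compressed. A probe set was tested if its log2 value exceeded 4 on at least 3 of 6 arrays (25381, or 56.4% of non-controls). Limma 3.58.1 (R 4.3.3; lmFit, eBayes, 2-sided) compared ZnR with Ctl, with no covariate and Benjamini-Hochberg adjustment over all of them (threshold 0.05). Errors of differences are moderated standard errors. Symbols came from the platform annotation, updated by Entrez identifier to GRCm38.p6 RefSeq names. The fit was tested on simulated data.

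The members and the 16 other gene lists were chosen with earlier results of these data known. Of the lists' 143 genes, 121 were tested. The genes named are the members, up to 3 genes of each list with the smallest p, any list gene past the threshold, fixed check genes, and the 5 genes with the nearest profile. Alternatives covered the level filter, normalization, variance prior (with statmod 1.5.0), array weights, the low-18S pair as a block, probe sets per gene and each mouse left out; leaving out both low-18S arrays was chosen after seeing the data. Tables and plots used Python 3.11.15, pandas 2.3.3 and matplotlib 3.10.9.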

Additional observations from a re-analysis of the deposited data

How the results depend on the processing

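No paired analysis was made because the labels name no pairs of mice. Of 104 recomputed differences of the 7 precursor genes, 99 kept their direction and their side of the threshold, and 3 newly passed, all with array weights (3 members past the threshold, against 0). Tmem100 turned to 0.05 with array weights and to 0.0023 without the low-18S pair, and Pecam1, an endothelial gene that measured 0.24, turned to -0.02 with array weights. The cause was not tested. Over all probe sets, 373 calls became 904 with the trend and robust prior, 2003 with array weights, 1 to 109 with 1 mouse left out and 1 without the low-18S pair. Over the 16 other lists, 12 genes past the threshold became 19 with the trend and robust prior, 26 with array weights, 19 with the mean of all probe sets of a gene (adjusted over 11749 genes), 0 to 6 with 1 mouse left out and 0 without the low-18S pair. Cspg4 had no value with the stricter level filter. Its probe sets lie within 1 log2 unit of the level floor of 4, where the values are compressed.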

Other observations

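The 5 genes whose centred profile over the 6 arrays lay nearest to the mean centred profile of the 7 precursor genes were Sv2c, Trmt2a, Prkd1, 2810410L24Rik and Irak1, with root mean square differences of 0.021, 0.022, 0.023, 0.029 and 0.039 log2 units. Sv2c, a synaptic vesicle protein gene, read 4.85, 4.75 and 5.01 in ZnR mice 3, 7 and 11, against 4.55, 4.56 and 4.67 in Ctl mice 1, 5 and 9. None of the 5 passed the threshold in limma (adjusted p from 0.148 to 0.274), and none belongs to the lists used here. Nearness was chosen among 11742 other genes over only 6 arrays, so it is a description.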
